A study of Mus musculus with 4 samples.

Results

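The genes of oxidative phosphorylation were examined in ribosome-bound RNA of hippocampal neurons that had been tagged during sleep deprivation. They were chosen by symbol from the protein-coding rows of the deposited table: the Nduf, Sdha to Sdhd, Uqcr, Cox4 to Cox8 and Atp5 genes of the nucleus, and the mt- genes of chromosome M. The rule took 107 of the 28193 rows, 94 coded in the nucleus and 13 on chromosome M. In fosTRAP-seq, an AAV carrying Cre recombinase fused to ERT2 under a c-Fos promoter and a second AAV carrying a Cre-dependent HA-tagged Rpl22 under an EF1a promoter mark neurons that expressed Fos in a window opened by 4-hydroxytamoxifen, and anti-HA beads then pull down their ribosomes. The animals were male C57BL/6J mice of 3 to 5 months. All of them, the controls included, were sleep deprived for 5 h by gentle handling on day 0, with 4-hydroxytamoxifen at ZT 2. A second 5 h deprivation followed on day 7 in the SD mice but not in the NSD mice, and tissue was collected at ZT 5. Each library pools the CA1 of 5 mice, and each group of 10 mice therefore gave n = 2 libraries. The sample labels instead name dorsal hippocampus and the genotype cFos-Cre:Ribotag, and give each library a batch number, so that batches 1 and 2 each hold an NSD and an SD library. The comparison of SD with NSD asks which ribosome-bound transcripts of the tagged neurons differ when sleep is lost again.

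Oxidative phosphorylation passes electrons from NADH through complex I, or from succinate through complex II, to complex III, cytochrome c and complex IV, and the proton gradient built on the way drives complex V, the ATP synthase. Complex II is wholly coded in the nucleus, whereas the other complexes combine nuclear-coded subunits, translated on cytosolic ribosomes and imported, with subunits coded on the circular mitochondrial genome and translated on mitochondrial ribosomes. Neurons rely on this pathway for most of their ATP. Rpl22 is a protein of the cytosolic large ribosomal subunit, so transcripts of chromosome M, which stay inside mitochondria, are not bound to tagged ribosomes.

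The libraries held 153511705 to 195910235 estimated counts over 26049 to 27455 genes. Levels are given in CPM, counts scaled by library size and edgeR's TMM factors (0.965 to 1.02), or in CPM per kilobase of the canonical transcript where genes are compared. The transcript lengths come from a later annotation than the counts, in which 19 of the 107 genes, all 13 of chromosome M among them, have the same start and end, so that levels per kilobase of the nuclear-coded genes are approximate. Rpl22 read 628 and 1045 CPM in NSD libraries 1 and 2 and 610 and 809 CPM in SD libraries 1 and 2. Fos read 271 and 513 CPM in NSD and 336 and 375 CPM in SD. For both genes NSD library 2 held the highest value and the groups overlapped. The 9 markers of CA1 pyramidal neurons, none of them at 0, summed to 6890 to 7526 CPM, most of it Camk2a. edgeR called none of the 9, and 4 of them had log2 fold changes above 0. Of the 9, 4 were lower in both SD libraries than in either NSD library, where 20.0% of the protein-coding genes tested were. At an unadjusted p under 0.05 in edgeR, 4 were lower, where 12.2% of all genes and 895 of 15551 protein-coding ones were. With the batch number as a block, 4 were called lower, where 8.47% of all genes and 512 of the protein-coding ones were. Wfs1, Neurod6 and Fibcd1 were among the 4 each time, with log2 fold changes of -0.39 to -0.35. The sums of 8 astrocyte markers (3027 to 3608 CPM) and 6 oligodendrocyte markers (1539 to 1862 CPM) show that RNA of other cells was present. The 8 endothelial markers, none of them at 0, summed to 46.6 and 65.0 CPM in NSD and 38.2 and 24.9 CPM in SD, and all 8 had fitted log2 fold changes below 0. edgeR called 0 of the 8, and 6 were lower at an unadjusted p under 0.05. In 6 both SD libraries were below both NSD libraries. The fit with the block called 6 lower. Shares over other genes are those given above. The median log2 difference was -0.36 within batch 1 and -1.39 within batch 2. The 8 mural cell markers summed to 76.1 and 71.8 CPM in NSD and 67.9 and 55.8 CPM in SD, 7 of 8 below 0. Of 10 RNAs known from the nucleus, 9 had log2 fold changes below 0 and 5 were called lower by edgeR, where 2.33% of all genes were. Miat among them read 154 and 113 CPM in NSD and 63.4 and 47.0 CPM in SD. With edgeR's filterByExpr as the count filter no gene was called lower (2650 at an unadjusted p under 0.05 and the fold threshold), so that all 5 calls were lost, those of Miat, Kcnq1ot1 and Neat1 at an adjusted p of 0.0628 each. The call of Neat1 was also lost with no count filter (edgeR adjusted p = 0.0507). Their part in the results below was not tested, and in pooled tissue fewer cells of a type and less RNA per cell cannot be told apart.

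Chromosome M transcripts were present in every library. The 13 genes took 0.234% of all counts in NSD library 1 and 0.257% in NSD library 2, with 95% Wilson intervals of 0.234% to 0.235% and 0.256% to 0.258%. The SD libraries gave 0.228% and 0.208%, with intervals of 0.228% to 0.229% and 0.208% to 0.209%. The intervals are for counting error alone. The nuclear-coded genes took 0.378% and 0.445% in NSD and 0.403% and 0.425% in SD. The mitochondrial rRNA rows held no more than 0.00293% of the counts, in libraries made with a ribosomal RNA depletion kit.

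A single gene held most of the chromosome M counts. mt-Co1 (chromosome M, 5328 to 6872), the catalytic subunit of complex IV, took 58.3% to 62.4% of them. At 869 and 1013 CPM per kilobase in NSD and 900 and 856 CPM per kilobase in SD it was the highest of all members in each library, above the nuclear-coded Atp5b at 315 and 386 in NSD and 353 and 397 in SD. Next among the chromosome M genes came mt-Co3 at a mean of 155 CPM per kilobase, mt-Co2 at 131, mt-Cytb, the cytochrome b of complex III, at 124, mt-Nd5 at 115, mt-Nd1 at 112 and mt-Nd4 at 98.7. The lowest mt-Co3 library (141.8) stood just above the highest mt-Co2 library (141.1), and the ranges of the other neighbours from mt-Co2 to mt-Nd4 overlapped. mt-Nd6, coded on the other strand, followed at 55.4, then mt-Nd2 at 40.5 and mt-Atp6, a channel subunit of the ATP synthase, at 37.4. The lowest were the short genes mt-Nd4l at 13.9, mt-Atp8 at 11.5 and mt-Nd3 at 10.3 CPM per kilobase, whose library values overlapped each other.

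A copy of part of the mitochondrial genome inside chromosome 1 bears on these levels. On GRCm39, chromosome 1 from 24650616 to 24655269 (minus strand) aligned to chromosome M from 6390 to 11042 over 4654 bases at 99.94% identity, with 2 mismatches and 1 gap. The copy holds the whole of mt-Co2, mt-Atp8, mt-Atp6, mt-Co3, mt-Nd3 and mt-Nd4l, 63.6% of mt-Nd4 and 31.3% of mt-Co1. One mismatch is A1066T in mt-Co1 and the other T3C in mt-Nd3, written with the base of chromosome M first and counted from the first base of the gene. The sequences below show the second one in capitals, with 30 bases on its left and 29 on its right, because it is the only base that separates these stretches.
mt-Nd3, chrM:9431-9490 (+): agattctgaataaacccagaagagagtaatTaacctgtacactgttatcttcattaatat
copy, chr1:24652169-24652228 (-): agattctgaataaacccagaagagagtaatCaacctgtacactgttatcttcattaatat
Elsewhere in mt-Nd3 a read of either origin has the same letters.

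The annotation has rows for pieces of the copy, and these held many of the counts. Gm10925, the copy of mt-Atp6, took 63.1% to 67.6% of the counts of the pair, Gm28437 took 58.2% to 59.4% of those shared with mt-Co3, Gm10222 65.5% to 69.8% with mt-Nd4l, Gm28438 62.9% to 78.8% with mt-Nd3 and Gm28661 40.8% to 45.1% with mt-Co2. For the partly copied genes the copies held less, 6.4% to 9.3% on Gm28439 for mt-Nd4 and 4.6% to 5.5% on Gm29216 for mt-Co1. The copies held 0.0357% to 0.0433% of all counts. With each copy added back, the mean level of mt-Co3 was 373 CPM per kilobase instead of 155, mt-Co2 229 instead of 131, mt-Atp6 107 instead of 37.4, mt-Nd4l 43.1 instead of 13.9 and mt-Nd3 38.5 instead of 10.3. mt-Atp8 lies wholly within the copied stretch but has no copy row of its own, so its level could not be adjusted in this way. For these genes the deposited value is a share of the reads set by the authors' expectation-maximization step, and transcripts of both loci cannot be told apart.

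**Figure D1:**
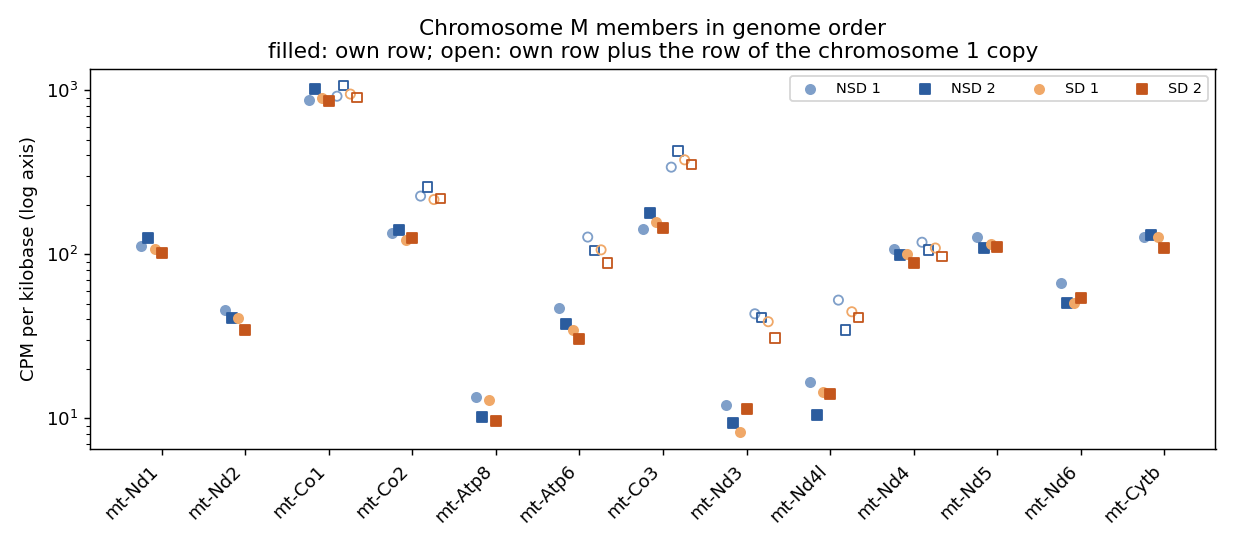
The 13 chromosome M genes in genome order (x axis) with their level in CPM per kilobase on a log axis in each of the 4 libraries. Filled symbols are the gene's own row and open symbols add the row of its chromosome 1 copy. mt-Co1 lies highest in every library, and adding the copies moves mt-Co2, mt-Atp6, mt-Co3, mt-Nd3 and mt-Nd4l up.

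**Figure D2:**
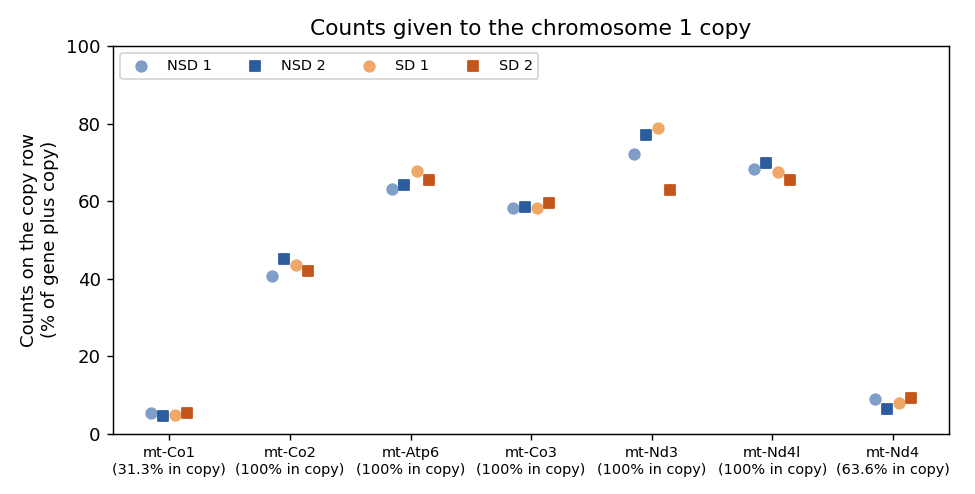
For the 7 genes with a copy row on chromosome 1, the percent of the counts of gene plus copy that were given to the copy, in each library, with the part of the gene that lies in the copy under its name. mt-Nd3 has the widest spread, from 62.9% to 78.8%.

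Some chromosome M genes overlap each other as well, so that reads across the junction belong to both. Capitals mark the shared bases, shown because reads from them cannot be assigned to one gene by their letters alone.
mt-Atp8 into mt-Atp6, chrM:7915-7981 (+): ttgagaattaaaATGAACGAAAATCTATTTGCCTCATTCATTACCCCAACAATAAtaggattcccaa
mt-Nd4l into mt-Nd4, chrM:10155-10185 (+): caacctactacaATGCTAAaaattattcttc
mt-Nd5 into mt-Nd6, chrM:13540-13577 (+): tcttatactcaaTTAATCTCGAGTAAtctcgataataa
The overlap of mt-Atp8 and mt-Atp6 is 43 bases, that of mt-Nd4l and mt-Nd4 is 7, and the 14 bases shared by mt-Nd5 and mt-Nd6 are read in opposite directions. The sources used here do not say whether the counting used the strand of the read.

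Between SD and NSD, edgeR's quasi-likelihood test called none of the 105 members tested, with a call set at an adjusted p under 0.05 together with more than a 1.2-fold change. Over all 22338 genes tested it called 172 higher (0.77%) and 520 lower (2.33%), 3.10% in either direction. Of the 15551 protein-coding genes tested, the class the members belong to, it called 148 higher and 84 lower. At an unadjusted p under 0.05, 1 member was higher, Atp5g1, and 4 were lower, Cox6c, mt-Atp6, mt-Nd1 and mt-Co2, against 6.86% of all genes higher and 12.2% lower. Among the 15551 protein-coding genes, 1378 were higher and 895 lower at that threshold. Cox7b2, with 9, 4, 0 and 0 counts in NSD 1, NSD 2, SD 1 and SD 2, and Cox8b, with 7, 15, 12 and 5, did not exceed 5 counts in every library and were not tested. When edgeR was fitted with the batch number as a block, it called 2.99% of all genes higher and 8.47% lower. Of the 15551 protein-coding genes it called 587 higher and 512 lower. That fit called 2 members, Atp5g1 higher and mt-Atp6 lower. DESeq2 called the same 2, at an adjusted p of 0.0314 for Atp5g1 and one only just under the threshold for mt-Atp6, where it called 2.99% of all genes higher and 5.79% lower.

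mt-Atp6 read 32.0 and 25.7 CPM in NSD and 23.4 and 20.7 CPM in SD. Neither SD library reached the lower NSD library (fitted log2 fold change -0.39 ± 0.11, SE, 95% interval -0.65 to -0.12, edgeR adjusted p = 0.107, and 0.00316 with the block). Without NSD library 1 the log2 fold change was -0.19 (edgeR adjusted p = 0.417), and over all libraries left out in turn it ran from -0.53 to -0.19. It was called lower without NSD library 2 or SD library 1 (edgeR adjusted p = 0.0325 and 0.00613), fits that called 2.0% and 8.75% of all genes lower and 1.03% and 1.31% higher. With the counts of its chromosome 1 copy added, mt-Atp6 stood at 127 and 106 CPM per kilobase in NSD and 106 and 88.2 in SD, SD library 1 exceeded NSD library 2, and the log2 fold change was -0.26 at an edgeR adjusted p of 0.253. mt-Nd1, a membrane subunit of complex I that has no copy on chromosome 1, read 107 and 120 CPM in NSD and 103 and 96.8 CPM in SD, with a log2 fold change of -0.18 ± 0.077 (SE, edgeR adjusted p = 0.242) that was -0.10 without NSD library 2. mt-Co2, the subunit of complex IV that takes electrons from cytochrome c, read 91.5 and 96.5 CPM in NSD and 83.0 and 86.3 CPM in SD (-0.15 ± 0.066, SE, edgeR adjusted p = 0.259). mt-Nd2 read 47.6 and 42.5 CPM in NSD and 42.2 and 36.0 CPM in SD, and its log2 fold change of -0.20 ran from -0.32 without SD library 1 to -0.08 without SD library 2. By their own rows, these 4 were the chromosome M genes whose libraries did not overlap, 4 of 13 lower and 0 higher, where 20.0% of the protein-coding genes tested were lower in this way and 26.5% higher (27.5% and 22.0% of all genes tested). With the copies added the groups overlapped for mt-Atp6 and no longer did for mt-Nd3, so that the count was again 4.

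The fitted log2 fold changes of the chromosome M genes had a median of -0.13, with 12 of 13 below 0, beside -0.016 over all genes tested and 0.018 over the protein-coding ones. Of all 22338 genes tested, 11805 were below 0, as were 7117 of the 15551 protein-coding ones. The median of the chromosome M genes was -0.13 within batch 1 and -0.18 within batch 2. mt-Co1 read 1343 and 1565 CPM in NSD and 1391 and 1322 CPM in SD. Its groups overlapped, and the log2 difference within the batches was 0.05 in batch 1 and -0.24 in batch 2. The log2 fold change of mt-Cytb was -0.12, that of mt-Nd4 -0.14, mt-Nd5 -0.06, mt-Nd6 -0.17, mt-Co3 -0.09, mt-Nd3 -0.13 and mt-Atp8 -0.07, with overlapping libraries in each case. Without SD library 2 the values of mt-Cytb and mt-Nd4 were -0.00406 and -0.03, and without SD library 1 they were both -0.24. With its copy added, mt-Nd3 stood at 43.3 and 41.1 CPM per kilobase in NSD and 38.7 and 30.8 in SD, without overlap, and its log2 fold change was -0.28 (edgeR adjusted p = 0.262). mt-Nd4l was the one gene above 0, at 0.07, with 4.95 and 3.10 CPM in NSD and 4.29 and 4.19 CPM in SD, and turned to -0.03 with its copy added. The 95% intervals of 9 of the 13 lay inside a change of 1.5-fold in either direction, and those of all 13 inside 2-fold.

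Summed, the chromosome M share of counts was 0.246% ± 0.0158 in NSD and 0.218% ± 0.0140 in SD (s.d., n = 2). The libraries of the groups did not overlap, with a log2 difference of -0.17, but an exact permutation test of 2 libraries against 2 cannot give a two-sided p below the 0.333 it gave here. Within batch 1 the log2 difference was -0.04 and within batch 2 -0.30. The nuclear-coded share was 0.411% ± 0.0471 in NSD and 0.414% ± 0.0156 in SD (s.d., n = 2), with overlapping libraries (log2 difference 0.01, exact permutation p = 1.0). The counts of the nuclear-coded genes were 1.61 and 1.73 times those of the chromosome M genes in NSD and 1.77 and 2.04 times in SD, a log2 difference of 0.18 (exact permutation p = 0.333), 0.13 in batch 1 and 0.24 in batch 2. Without mt-Co1 the ratio was 3.87 and 4.61 in NSD and 4.48 and 5.26 in SD, a log2 difference of 0.20 (exact permutation p = 0.667), 0.21 in batch 1 and 0.19 in batch 2. SD library 1 then stood below NSD library 2, though above the NSD library of its own batch.

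**Figure D3:**
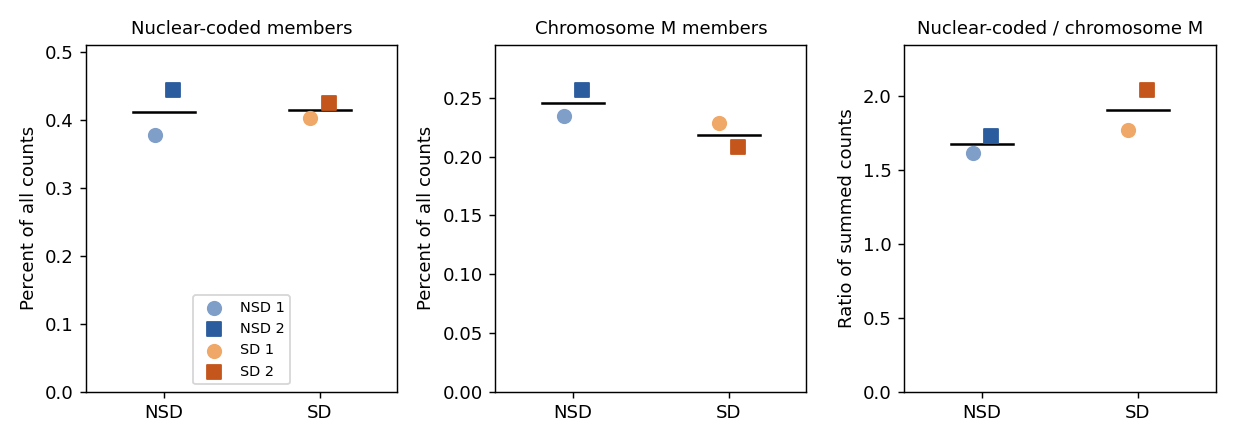
The share of all counts on the nuclear-coded members (left, percent), the share on the chromosome M members (middle, percent) and the ratio of their summed counts (right) in the 4 libraries, with NSD and SD on the x axis and the group mean as a bar. The nuclear-coded shares overlap between groups, the chromosome M shares are lower in both SD libraries, and the ratio runs from 1.61 to 1.73 in NSD and from 1.77 to 2.04 in SD.

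Of the nuclear-coded genes, 64 of the 92 tested had a log2 fold change above 0 and 28 below, with a median of 0.06. The lean was not present in both batches. The median was 0.13 within batch 1 and -0.00089 within batch 2, and leaving out NSD library 1 gave -0.02. Both SD values exceeded both NSD values for 13 of the 92 and fell short of both for 7, where the shares over all protein-coding genes tested were 26.5% and 20.0%. The SE of a log2 fold change had a median of 0.10. The 95% interval excluded a change of more than 1.5-fold for 79 of the 92 genes and a change of more than 1.2-fold for 17.

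**Figure D4:**
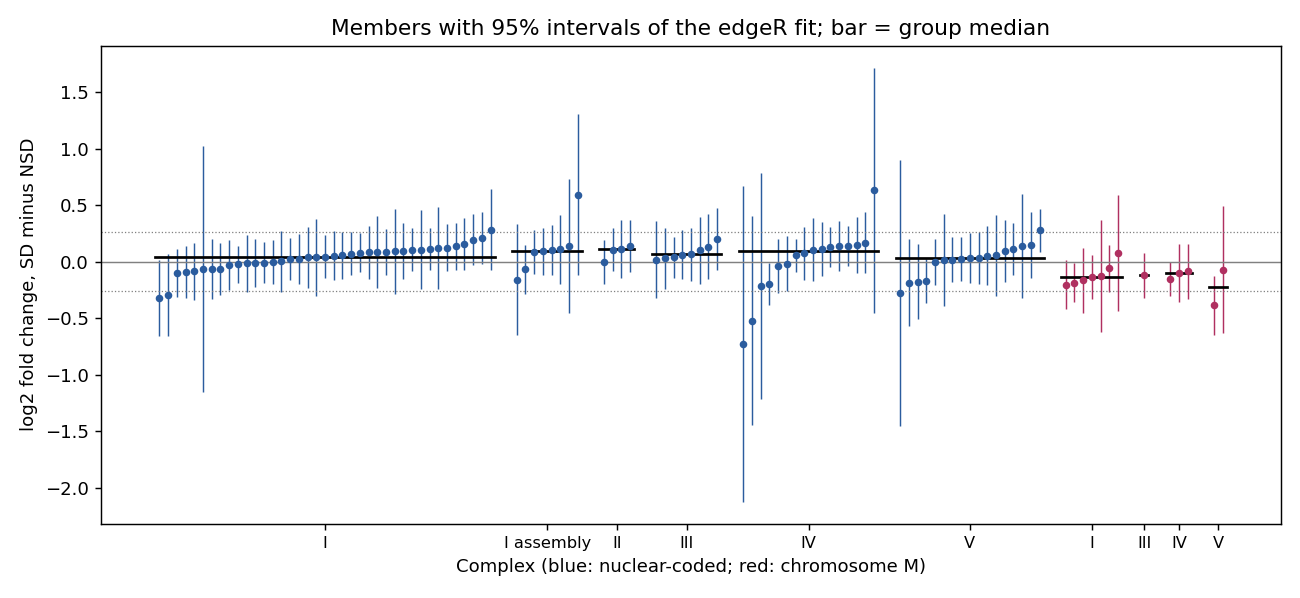
The fitted log2 fold change, SD minus NSD, of each of the 105 members tested (y axis), ordered by size within its complex (x axis), with the 95% interval of the edgeR fit. Nuclear-coded genes are blue and chromosome M genes red, horizontal bars are group medians, and dotted lines mark a 1.2-fold change. The medians of the nuclear-coded groups lie between 0.03 and 0.11 and those of the chromosome M groups between -0.23 and -0.10.

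Complex I, the NADH dehydrogenase, had 39 nuclear-coded genes in the list, grouped by their Nduf names, with a median log2 fold change of 0.05, 25 above 0 and 14 below. Ndufv1, which is part of the module that binds NADH, was the highest per kilobase at a mean of 63.6 CPM per kilobase and read 97.8 and 109 CPM in NSD and 106 and 113 CPM in SD. Among genes at a mean of 1 CPM or more, the largest differences upward in this complex were those of Ndufb1 and Ndufa9. Ndufb1 read 9.80 and 14.0 CPM in NSD and 14.8 and 14.3 CPM in SD (log2 fold change 0.28 ± 0.16, SE, edgeR adjusted p = 0.379), so that NSD library 1 stood apart from the other 3. The opposite-strand gene Cpsf2 overlaps 928 exon bases of Ndufb1 and held 462% of its counts, so this difference carries a doubt about which gene the reads came from. It was called higher without NSD library 2 (log2 fold change 0.57, edgeR adjusted p = 0.0422), whereas without NSD library 1 the log2 fold change was 0.08 (edgeR adjusted p = 0.851). Ndufa9 read 41.5 and 49.2 CPM in NSD and 48.6 and 56.1 CPM in SD, with overlapping groups and a log2 fold change of 0.21 that ran from 0.11 without SD library 2 to 0.33 without NSD library 2. The largest differences downward were those of Ndufa5, with 5.43 and 6.03 CPM in NSD and 4.81 and 4.34 CPM in SD (-0.32 ± 0.15, SE, edgeR adjusted p = 0.282), and Ndufb4, with 4.66 and 5.30 CPM in NSD and 4.29 and 3.82 CPM in SD (-0.30 ± 0.16, SE, edgeR adjusted p = 0.367). Both are accessory subunits and in both the SD libraries lay below the NSD libraries. Ndufb4 shares 391 bases, at 99.49% identity, with a pseudogene row, Ndufb4c, that held 722% of its counts.

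The 8 Ndufaf genes code for factors that assemble complex I and are not part of it. They were lower in level than the subunits, with a median of 2.94 CPM per kilobase against 16.5 for the 39 complex I genes, and Ndufaf7 was the highest at 9.08. Their median log2 fold change was 0.10, with 6 of 8 above 0. Ndufaf6 had the largest fitted difference of any member at 1 CPM or more. It read 0.69 and 1.05 CPM in NSD and 1.37 and 1.26 CPM in SD, which gave 0.59 ± 0.31 (SE, edgeR adjusted p = 0.36). Leaving out NSD library 1 or 2 gave 0.35 and 0.92.

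Complex II, succinate dehydrogenase, is also an enzyme of the citrate cycle. Sdha, its flavoprotein subunit, read 259 and 274 CPM in NSD and 274 and 300 CPM in SD (log2 fold change 0.11 ± 0.083, SE, edgeR adjusted p = 0.566). Leaving out SD library 1 gave 0.17 and leaving out SD library 2 gave 0.05. The iron-sulfur subunit Sdhb read 26.3 and 29.9 CPM in NSD and 27.98 and 28.03 CPM in SD, with a log2 fold change of -0.00365 that changed sign with the scaling and the count filter. The membrane anchors Sdhc and Sdhd had log2 fold changes of 0.11 and 0.14, with overlapping groups. Per kilobase, Sdha stood at 90.1, Sdhd at 23.7, Sdhc at 9.05 and Sdhb at 6.96 CPM per kilobase. Sdha was also the highest of these genes in CPM in every library. The order of Sdhd, Sdhc and Sdhb rests on their transcript lengths, which are approximate and the same in every library. In CPM their levels were close, and Sdhb was above Sdhd and Sdhc in NSD library 1 but below both in the SD libraries.

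The 8 nuclear-coded genes of complex III all had log2 fold changes above 0, from 0.02 to 0.20, but in none of them were both SD values above both NSD values. The median was 0.27 within batch 1 and -0.02 within batch 2. Uqcrc1, a core protein of the complex, was the highest at 94.3 CPM per kilobase and read 148 and 160 CPM in NSD and 150 and 166 CPM in SD. Uqcrh, the hinge protein, had the largest fitted difference, 17.9 and 23.2 CPM in NSD against 24.4 and 22.9 CPM in SD (0.20 ± 0.12, SE, edgeR adjusted p = 0.437). Leaving out NSD library 1 gave 0.05 and leaving out NSD library 2 gave 0.40.

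In complex IV, cytochrome c oxidase, 16 of the 18 nuclear-coded genes could be tested, and 10 were above 0. Cox6c was the one with an unadjusted p under 0.05. It lies on chromosome 15 from 35926032 to 35938392 and read 45.4 and 48.5 CPM per kilobase in NSD and 41.9 and 39.8 in SD (log2 fold change -0.20 ± 0.081, SE, edgeR adjusted p = 0.222). Both SD libraries were below both NSD libraries. An opposite-strand gene, Vps13b, overlaps 451 of its exon bases and held 800% of its counts. Cox8a and Cox6a1 were higher in both SD libraries than in either NSD library, at 62.2 and 70.5 against 72.5 and 72.9 CPM and at 33.9 and 37.7 against 40.2 and 38.6 CPM, with log2 fold changes of 0.13 and 0.14 at edgeR adjusted p-values of 0.417 and 0.398. Without NSD library 1 these values were 0.07 and 0.09, and without NSD library 2 they were 0.225 and 0.218.

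Several complex IV subunits exist as isoforms that are best known from different tissues, and these libraries held almost wholly one of each pair. Cox4i1, the widely used form, read 106 and 129 CPM per kilobase in NSD and 126 and 133 in SD, whereas Cox4i2, known from lung and vascular cells, was 0.0524% to 0.195% of the pair. The heart and muscle forms were also minor, with Cox6a2 at 0.777% to 1.83% of the pair with Cox6a1, Cox7a1 at 2.04% to 3.69% of the pair with Cox7a2, and Cox8b at 0.00952% to 0.0355% of the pair with Cox8a. Cox6b2, known from testis, made up 0.563% to 0.937% of the pair with Cox6b1. Cox7a2l read 58.5 and 58.2 CPM in NSD and 60.0 and 61.4 CPM in SD, and Cox7b read 35.3 and 45.5 CPM in NSD and 42.3 and 48.6 CPM in SD. Ndufa4, named for complex I but now counted as a subunit of complex IV, read 55.9 and 66.4 CPM per kilobase in NSD and 60.4 and 69.0 in SD, and its relative Ndufa4l2 was 0.395% to 0.797% of that pair. Ndufa4l2 overlaps Shmt2, an opposite-strand gene that held 3428% of its counts, and Cox8b overlaps Psmd13, so their low values carry that doubt. The log2 fold changes of Cox4i2 (-0.73 ± 0.61, SE), Cox6a2 (-0.52 ± 0.41, SE) and Cox7a1 (0.63 ± 0.47, SE) had intervals that reached from a fall to a rise.

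**Figure D5:**
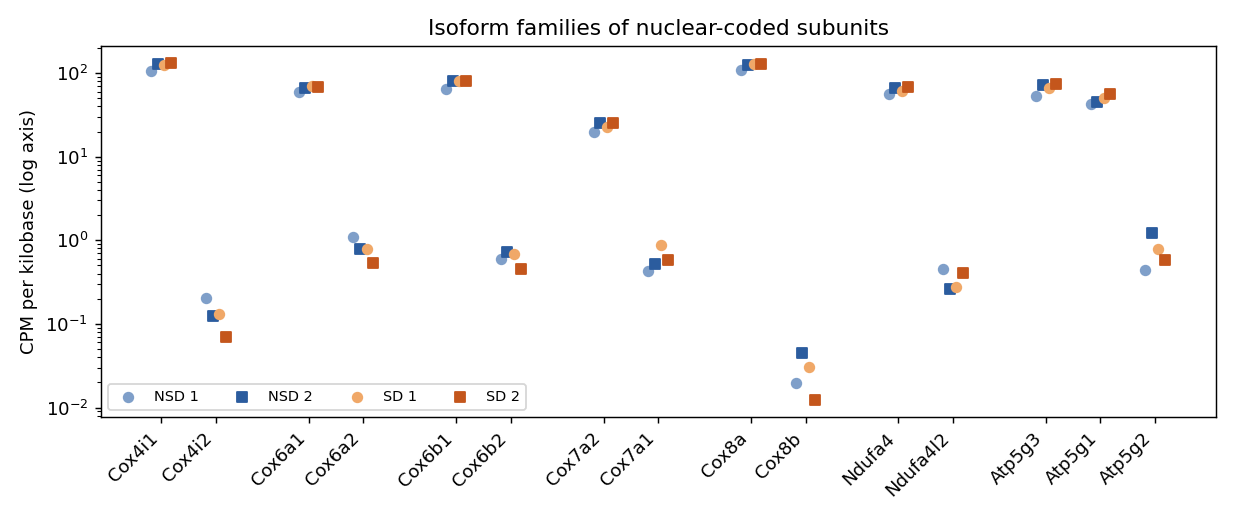
Level in CPM per kilobase on a log axis of the isoforms of nuclear-coded subunits in the 4 libraries, with the members of a family side by side on the x axis. The second isoform lies far below the first in each pair of complex IV and in Ndufa4 and Ndufa4l2, while Atp5g3 and Atp5g1 lie close together and Atp5g2 is low.

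Complex V held the highest of the nuclear-coded genes. Atp5b and Atp5a1, the beta and alpha subunits of the catalytic head, stood at 362 and 228 CPM per kilobase, and Atp5b read 606 and 743 CPM in NSD and 679 and 764 CPM in SD. The 3 Atp5g genes code for the same mature c subunit of the membrane ring with different import sequences. Atp5g3 read 53.7 and 72.8 CPM per kilobase in NSD and 66.8 and 73.1 in SD, and Atp5g1 made up 38.4% to 44.0% of the pair with it. Atp5g2 read 0.44 and 1.23 CPM per kilobase in NSD and 0.79 and 0.58 in SD, but a pseudogene row, Gm10175, of 99.1% identity over 445 bases held 6811% of its counts. The level of Atp5g2 is therefore uncertain.

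Atp5g1 (chromosome 11, 95959678 to 95966496) had the lowest p of the nuclear-coded genes. It read 25.9 and 27.8 CPM in NSD and 30.9 and 34.1 CPM in SD, a mean of 26.8 ± 1.36 CPM against 32.5 ± 2.25 CPM (s.d., n = 2). Both SD values were above both NSD values, with a log2 fold change of 0.28 ± 0.082 (SE, 95% interval 0.09 to 0.47, edgeR adjusted p = 0.107). The difference was alike in the batches, 0.26 in batch 1 and 0.30 in batch 2, and the adjusted p was 0.0129 in edgeR with the block and 0.0314 in DESeq2. Among protein-coding genes only, the log2 fold change was 0.26 at an edgeR adjusted p of 0.179. With libraries left out in turn it ran from 0.22 to 0.35. A pseudogene row, Gm10039, of 98.8% identity over 415 bases held 71.5% as many counts as Atp5g1. Among the genes of the complex at 1 CPM or more, the lowest log2 fold changes were those of Atp5e and Atp5j2. Atp5e, the epsilon subunit, read 5.06 and 6.76 CPM in NSD and 5.28 and 5.11 CPM in SD and had a log2 fold change of -0.19, and Atp5j2 had one of -0.18. Atp5g2, below 1 CPM, had one of -0.28. Over the 17 genes of the complex, 12 were above 0 and 5 below.

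Genes around the pathway were read from the same fit. None of the 47 assembly factors outside the symbol rule, 19 citrate cycle and pyruvate entry genes, 4 pyruvate dehydrogenase kinases, 15 electron and inner membrane carriers, 9 transcriptional regulators, 29 genes of mitochondrial DNA and RNA upkeep, 78 mitochondrial ribosomal proteins, 23 import genes or 12 stress response genes tested was called in either direction by edgeR's quasi-likelihood test. Their median log2 fold changes were 0.10, 0.04, 0.14, 0.09, 0.09, 0.01, 0.04, 0.07 and 0.05 in that order. At an unadjusted p under 0.05, where 6.86% of all genes were higher and 12.2% lower, 4 of the 47 assembly factors were higher and 1 lower, 2 of the 4 kinases were higher and 0 lower, 2 of the 9 regulators were higher and 0 lower, 3 of the 23 import genes were higher and 1 lower, and 3 of the 78 mitochondrial ribosomal proteins were higher and 1 lower. In the citrate cycle list 0 were higher and 1 lower, among the carriers 0 and 1, in the DNA and RNA upkeep list 1 and 2, and in the stress response list 1 and 0. Among the 15551 protein-coding genes tested, 1378 were higher and 895 lower at that threshold. Of the assembly factors, 39 of 47 had log2 fold changes above 0, and 22 had both SD values above both NSD values and 4 below, where 26.5% of all protein-coding genes tested were above and 20.0% below. The counts above and below were 18 and 11 of the 78 mitochondrial ribosomal proteins, 9 and 3 of the 29 DNA and RNA upkeep genes, 9 and 2 of the 23 import genes, 3 and 0 of the 4 kinases, 3 and 0 of the 9 regulators, 3 and 0 of the 12 stress response genes, 2 and 1 of the 15 carriers, and 1 and 1 of the 19 citrate cycle genes. With the batch block edgeR called 1 assembly factor, 1 transcriptional regulator, 1 mitochondrial ribosomal protein, 2 import genes and 1 stress response gene higher, and 1 gene of mitochondrial DNA and RNA upkeep lower, where 2.99% of all genes were called higher and 8.47% lower. Of 90 cytosolic ribosomal protein genes, short and abundant nuclear-coded messages like many of the members, 1 was called higher, Rps15a, with 59.0 and 60.7 CPM in NSD and 77.1 and 75.7 CPM in SD (log2 fold change 0.35, edgeR adjusted p = 0.0385), where 0.77% of all genes were. The call of Rps15a was lost with no count filter, with filterByExpr, among protein-coding genes only and without NSD library 1, at edgeR adjusted p-values of 0.0507, 0.0628, 0.0544 and 0.0578. The median of these genes was 0.04.

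Promoter motifs were counted as a feature that the symbol rule did not use. NRF1 is a transcription factor known to act on many respiratory genes, and its motif was searched on both strands as GCGC, A, any base and GCGC again, in the RefSeq windows (GRCm38.p6) from 250 bases before to 50 bases after each start. It was found in 24.4% of the 82 windows of the 77 nuclear-coded members that had one, and in 6.38% of 21262 windows of protein-coding genes. The motif CCGGAAG, the core bound by ETS factors such as GABP, was found in 23.2% and 11.6%. The windows below were placed on GRCm39 by their unique match, and capitals mark the motif. They come from the 3 highest members per kilobase among those whose NRF1 motif could be placed in this way. Sdha and Cox6a1 each have a second match, 98 and 162 bases before the start, and the one nearer the start is shown. The motif shown begins 55 bases before the start in Sdha, 117 in Cox6a1 and 98 in Ndufs5.
Sdha, chr13:74498395-74498424 (-): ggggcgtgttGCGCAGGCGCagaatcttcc
Cox6a1, chr5:115487115-115487144 (-): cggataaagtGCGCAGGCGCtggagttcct
Ndufs5, chr4:123612058-123612087 (-): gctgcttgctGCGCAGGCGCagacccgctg
A match of letters is no evidence of binding. The gene of NRF1 itself belongs to the 9 regulators above, of which none was called by edgeR, with 2 of 9 at an unadjusted p under 0.05, both higher, against 6.86% of all genes higher.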

How the data were processed

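The authors aligned reads from a stranded total RNA kit with ribosomal depletion by STAR 2.7.8a to mm39 and deposited estimated counts per gene (expectation-maximization model of Partek Flow, Ensembl 110), without normalization. Of the 28193 rows, 55.5% hold a value that is not whole. No library of another sample was in the table. Counts were rounded, and 22338 genes, those exceeding 5 counts in all libraries, were fitted with edgeR 4.0.16 (R 4.3.3; TMM, quasi-likelihood, condition only, Benjamini-Hochberg over all genes); common dispersion was 0.0296 and prior df 6.38. The authors used DESeq2, here an alternative (1.42.0). Rows of the members were read from that fit. Libraries of a group differed far beyond counting noise (chi-square per df 92.3 in NSD, 52.2 in SD). Exact permutation tests used numpy 2.4.6, and Wilson intervals used scipy 1.17.1. Batch numbers in the labels pair the libraries (correlation of deviations 0.178 over genes). All 107 members matched GENCODE vM39 by gene ID, which gave lengths and copies found by alignment, but only 19 have the start and end given in the deposited table.

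The members and lists were chosen with earlier results of these data known. Named were all chromosome M genes, the 5 largest and 5 smallest nuclear-coded log2 fold changes at 1 CPM or more, the highest gene per kilobase of each complex, tissue isoforms, complex II, Rpl22, Fos, and up to 3 called genes per direction of other lists; other genes named were chosen after their values were seen. The fits were tested on simulated data.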

Additional observations from a re-analysis of the deposited data

How the results depend on the processing

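With 2 libraries per group the calls moved with the fit. All genes called higher and lower numbered 172 and 520, 669 and 1294 in DESeq2, 50 and 80 with no count filter, 1 and 0 with filterByExpr (838 and 2650 at an unadjusted p under 0.05 and the fold threshold), 51 and 39 among protein-coding genes only, and 668 and 1891 with the replicate block. Under the block and under DESeq2 alike, 1 nuclear-coded gene, Atp5g1, was called higher and 1 chromosome M gene, mt-Atp6, lower; the block changed no other call of a member. Leaving out each library in turn leaves 1 library in a group, assumed to vary like the other. All genes called then ranged from 124 to 308 higher and from 78, without NSD library 1, to 1955 lower, without SD library 1. Nuclear-coded genes called higher ranged from 0 to 3, the 3 being Ndufb1, Atp5g3 and Cox6b1 without NSD library 2 (1.03% of all genes there), and chromosome M genes called lower from 0 to 1, mt-Atp6 without NSD library 2 or SD library 1 (2.0% and 8.75% of all genes called lower). The nuclear-coded median log2 fold change ranged from -0.0193 without NSD library 1, a change of sign, to 0.174 without NSD library 2, the chromosome M median from -0.195 without NSD library 2 to -0.0518 without SD library 2, and the log2 ratio difference from 0.0805 to 0.288 without SD libraries 2 and 1. The chromosome M share difference ranged from -0.235 to -0.104. Some single genes changed sign. The log2 fold change ranged from -0.178 to 0.0138 for mt-Co1, -0.301 to 0.179 for mt-Atp8, -0.208 to 0.0829 for mt-Co3, -0.371 to 0.0965 for mt-Nd3, -0.163 to 0.0817 for mt-Nd5, -0.354 to 0.0809 for mt-Nd6, -0.223 to 0.48 for mt-Nd4l, -0.35 to 0.0381 for Atp5e, -0.0254 to 0.108 for Uqcrc1, -0.0126 to 0.251 for Atp5b, -0.0271 to 0.381 for Atp5g3, -0.00702 to 0.211 for Ndufa4, -0.0257 to 0.29 for Cox7a2, -0.402 to 0.397 for Ndufa4l2, -0.541 to 0.0641 for Cox6b2, -0.809 to 0.65 for Atp5g2, -0.0639 to 0.0915 for Sdhb, -0.0118 to 0.285 for Sdhc, -0.528 to 0.176 for Rpl22 and -0.5 to 0.391 for Fos. Others kept their sign but moved by over 1.5 times, from 0.0288 to 0.363 for Cox7b, 0.00953 to 0.335 for Cox6b1, 0.0487 to 0.268 for Sdhd and 0.028 to 0.29 for Cox4i1, in each case without NSD libraries 1 and 2. Sdhb was also above 0 in DESeq2 and with its size factors in edgeR (0.0191 each), with no count filter (0.0249) and with filterByExpr (0.00262). Adding the chromosome 1 copies, an alternative chosen after seeing the data like the ratio without mt-Co1, turned mt-Nd4l to -0.0256, left 0 chromosome M genes called and moved their median to -0.124. The causes of these shifts were not tested.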

Other observations

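Copies of nuclear-coded members elsewhere in the genome also held counts. Of the 94 nuclear-coded members, 29 have a pseudogene row that matches them at 95% identity or more over at least 150 bases, and for 14 of these the pseudogene held at least 10% as many counts as the gene. Gm10250 held 175% of the counts of Atp5h (95.2% identity), Ndufa12-ps 163% of those of Ndufa12, Gm10221 70.0% of those of Atp5l (100.0% identity over 309 bases) and Gm4459 67.3% of those of Ndufab1. Of the nuclear-coded members, 76 had a count that is not whole in at least 1 library. Exons of a gene on the opposite strand overlapped 48 of them, and for 20 of these the other gene held at least 50% as many counts. Cox5b-ps, listed as protein-coding and so a member by the rule, had a mean of 21.3 CPM per kilobase and a log2 fold change of -0.02.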
